A study of Homo sapiens with 6 samples.

Results

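Mitochondrial fusion and fission are carried out by a small group of nuclear genes, and 10 of them were followed here in SH-SY5Y cells, a human neuroblastoma line, 24 h after infection with adenovirus. The 10 genes were taken by name (*MFN1*, *MFN2*, *OPA1*, *OMA1*, *DNM1L*, *FIS1*, *MFF*, *MIEF1*, *MIEF2* and *MTFP1*) from a table of 67060 genes, and all 10 were in it. The design held 3 libraries of cells given the control adenovirus (Ad CMV GFP, here GFP, replicates 1, 3 and 4) and 3 of cells given Ad CMV 3xFlag-*Esrrg* (here Flag-ERRg, replicates 2, 3 and 4), 0.5 µl of virus in each case. The Flag-ERRg virus carries the mouse coding sequence of *Esrrg*, the gene of estrogen-related receptor gamma (ERRγ), with a 3xFlag tag behind the CMV promoter, which is active in most cell types. All cells were thus infected, all came from 1 cell line, and no uninfected cells are among the libraries. RNA was total RNA after removal of ribosomal RNA, and the values are raw read counts per gene. No label says that the libraries of a group came from separate cultures, so p-values measure the spread between these libraries, which may be technical.

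Mitochondria join and divide continuously. The outer membranes are fused by the mitofusins (*MFN1* and *MFN2*) and the inner membranes by *OPA1*, which the protease *OMA1* cleaves when the membrane potential is lost. Division is driven by the dynamin-related GTPase *DNM1L* (DRP1), which is drawn from the cytosol to the outer membrane by the adaptors *MFF*, *MIEF1* (MiD51) and *MIEF2* (MiD49), while *FIS1* is an outer membrane protein of the fission machinery and *MTFP1* (MTP18) an inner membrane protein that promotes division. ERRγ is a nuclear receptor that activates genes of oxidative metabolism, and in neurons the balance of fusion and fission sets how mitochondria are shared out along the processes.

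In the comparison of Flag-ERRg with GFP, *FIS1* and *MIEF1* of the fission genes rose by 2.63 and 1.92 times. *MTFP1* was called higher as well, on few reads, and it passed the filter on low counts only through the Flag-ERRg libraries, where it is high. The mitofusins moved in opposite directions, *MFN2* rising 2.0-fold and *MFN1* falling to 0.682 of its GFP level. *MFF* rose and *OMA1* fell by less than 1.5-fold, and *DNM1L* and *OPA1* did not pass the test. Calls required 1.5-fold or more and an adjusted p (Benjamini-Hochberg over 24500 genes, edgeR's quasi-likelihood test) under 0.05. By that rule 4 of the 9 tested members were called, against 34.1% of all tested genes and 38.3% of the protein-coding ones. All 4 (*MFN2*, *FIS1*, *MIEF1* and *MTFP1*) were higher, where 17.3% of all tested genes and 25.9% of the protein-coding ones were higher. Calls of lower expression took in 0 of the 9 members, against 16.8% of all tested genes and 12.4% of the protein-coding ones, and 4 members were lower at an unadjusted p below 0.05 (DESeq2 likewise called 0 lower). With no fold cutoff, 7 members passed, 5 of them higher and 2 lower. Of all tested genes 47.8% passed, and 60% of the protein-coding ones, while 24.3% and 23.5% of all tested genes were higher and lower and, of the protein-coding ones, 37.6% and 22.4%. GFP and Flag-ERRg libraries were fully separate for 8 members, against 58.1% of all tested genes and 70.3% of the protein-coding ones. The median log2 fold change of the 9 members was 0.34, beside -0.10 for all tested genes and 0.12 for the 13746 protein-coding ones. With so few members, and *MTFP1* among the tested ones only through its Flag-ERRg libraries, these counts and medians are a description of the list. When at least 10 counts were required in every library, *MTFP1* was not tested and 3 members were called higher.

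Upstream sequences are shown for 4 members, those of *MIEF1* and *MTFP1* because they hold a half-site of the ERR element and those of *FIS1* and *MFN1* because these genes moved in opposite directions and share a motif. The letters searched, on both strands of the 250 bases before each RefSeq start site (GRCh38.p14, 35116 promoters), were chosen after the counts had been seen. They were the full ERR element TCAAGGTCA, its parts AAGGTCA and AGGTCA (which any longer match also contains), the NRF1 motif and CCGGAAG (ETS factors), and the last pair is common in promoters of mitochondrial genes. No member promoter held TCAAGGTCA or AAGGTCA, which occur in 0.319% and 3.44% of all promoters. The half-site AGGTCA, held by 12.1% of all promoters, was found in those of *MIEF1* and *MTFP1*. Both were called higher, but *MTFP1* has few reads and passed the filter on low counts only through the Flag-ERRg libraries. Short windows around it on the strand of the gene, with the match in capitals, lie at chr22:39502175-39502204 (*MIEF1*, first base of the match at position -103 from the start site) and chr22:30425544-30425573 (*MTFP1*, position -212, with another match on the opposite strand at position -9, inside annotated exon sequence and not shown):
MIEF1: agtcccttggtgAGGTCAcacacggaggcg
MTFP1: tggataagcccgAGGTCAcaagctttgcag
CCGGAAG, held by 8.52% of all promoters, was found for *MFN1*, *FIS1* and *MIEF1*, of which the first fell and the others rose. The 250 bases before the start sites of *FIS1* (chr7:101245082-101245331, minus strand) and *MFN1* (chr3:179347459-179347708, plus strand) hold no annotated exon, and are shown with CCGGAAG or its reverse complement in capitals:
FIS1: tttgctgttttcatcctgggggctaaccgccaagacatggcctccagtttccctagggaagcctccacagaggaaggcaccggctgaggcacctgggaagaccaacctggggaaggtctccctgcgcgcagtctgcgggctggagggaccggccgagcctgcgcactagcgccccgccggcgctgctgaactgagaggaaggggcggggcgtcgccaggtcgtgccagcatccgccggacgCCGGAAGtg
MFN1: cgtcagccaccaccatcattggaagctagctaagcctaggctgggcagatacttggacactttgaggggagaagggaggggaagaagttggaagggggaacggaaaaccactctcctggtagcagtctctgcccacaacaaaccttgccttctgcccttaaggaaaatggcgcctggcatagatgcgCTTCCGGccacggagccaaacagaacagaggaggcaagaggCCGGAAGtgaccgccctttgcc
The NRF1 motif, held by 5.07% of all promoters, was found for *OPA1* and *OMA1*, neither called. These matches are descriptions of short windows. No binding was measured in these libraries, and letters missing from the window say nothing of sites elsewhere.

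Between 24969759 and 29700980 reads were counted on genes in the GFP libraries and between 26513620 and 40859666 in the Flag-ERRg libraries. The human gene *ESRRG* had 87.0 ± 3.40 CPM (counts scaled to a common library size with edgeR's TMM factors, SD, n = 3) with GFP and 706 ± 119 (SD, n = 3) with Flag-ERRg, read from those viral and endogenous reads that aligned to it. Reads assigned to no feature are those that the counting gave to no gene, and where in the genome they lie was not tested. They were 51.3% to 52.2% of all reads in the GFP libraries. In Flag-ERRg they were 46.6% in replicate 2, 31.6% in replicate 3 and 29.5% in replicate 4. Replicate 2 thus stood between GFP and the others of its group. Of 12 markers of adrenergic neuroblastoma, 9 reached 1 CPM in every library and *TH* and *CHGA* were listed at 0 throughout, but 90.2% of the 31-base words of the longest *CHGA* transcript also occur in alternate contigs of hg38, where reads may be placed in more than 1 position. Why *TH* received no counts was not tested. Of 6 markers of neural progenitors, the cell type named in the labels, *PAX6* and *SOX1* stayed under 1 CPM. Of 3 immune markers none reached 1 CPM, with 73.5% of the words of *PTPRC* likewise in alternate contigs, and of 3 endothelial ones *CDH5* and *KDR* stayed under it. The other marker lists also hold genes that neuroblastoma cells can express. The 6 mesenchymal genes summed to 3740 to 3870 CPM with GFP and 3430 to 3680 with Flag-ERRg, the 4 epithelial genes to 34.0 to 41.1 and 59.1 to 92.8, and the 4 glial genes to 10.2 to 10.6 and 6.81 to 8.34. In bulk RNA, fewer cells that express a gene and less RNA of it per cell cannot be told apart.

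Of the mitofusins, which tether and fuse the outer membranes of neighbouring mitochondria, *MFN2* (ENSG00000116688, chromosome 1 from 11980181 to 12015211 of GRCh38) had 97.1, 108 and 105 CPM in GFP replicates 1, 3 and 4 and 168, 215 and 237 CPM in Flag-ERRg replicates 2, 3 and 4. All Flag-ERRg libraries lay above all GFP libraries, a rise of 1.00 on the log2 scale (standard error 0.13, edgeR adjusted p = 1.9e-04). *MFN1* (ENSG00000171109, chromosome 3 from 179347709 to 179394936) had 104, 98.9 and 105 CPM with GFP and 76.0, 70 and 64.0 CPM with Flag-ERRg. Here every Flag-ERRg library lay below every GFP library. *MFN1* changed by -0.55 on the log2 scale (standard error 0.10, adjusted p = 9.8e-04), which passed the adjusted p and fell short of 1.5-fold.

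The opposite moves of the mitofusins can be put on a scale that does not depend on library size. The ratio of *MFN2* to *MFN1* counts was 0.937, 1.09 and 1.00 in GFP replicates 1, 3 and 4, and 2.21, 3.07 and 3.71 in Flag-ERRg replicates 2, 3 and 4. The log2 ratio was 0.011 ± 0.109 (SD, n = 3) with GFP and 1.55 ± 0.38 (SD, n = 3) with Flag-ERRg, a difference of 1.54. An exact permutation test, two-sided, gave p = 0.1, the smallest that 3 libraries against 3 allow, and as the only ratio tested it needed no adjustment. The same ratio could not be formed for *MIEF2* and *MIEF1*, since *MIEF2* had no counts. A ratio of counts shows an unequal change of the pair, and gives no ratio of molecules because the genes differ in length. It also leaves in any difference tied to base composition, and GC content was 53.2% for *MFN2* and 39.9% for *MFN1* (longest transcripts). After correction for GC and length their log2 fold changes were 0.81 and -0.34, in place of 1.00 and -0.55. The ratio itself was not recomputed with that correction.

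For fusion of the inner membrane, the GTPase *OPA1* (ENSG00000198836, chromosome 3 from 193593144 to 193697811) had 99.8, 96.8 and 88.2 CPM in GFP replicates 1, 3 and 4 and 88.8, 80.8 and 72.1 CPM in Flag-ERRg replicates 2, 3 and 4. The groups overlapped, as Flag-ERRg replicate 2 lay above GFP replicate 4. Its log2 fold change of -0.24 (standard error 0.10) did not pass the adjusted p (0.084, edgeR). It passed without Flag-ERRg replicate 2 (0.022), at a log2 fold change of -0.21. *OMA1* (ENSG00000162600, chromosome 1 from 58415384 to 58546802), the stress-activated protease that cuts *OPA1* protein, had 20.1, 21 and 21.4 CPM with GFP and 15.8, 17.2 and 16.0 CPM with Flag-ERRg, without overlap. On the log2 scale the change was -0.35 (standard error 0.10, adjusted p = 0.012, edgeR), below the 1.5-fold cutoff. Its adjusted p was above 0.05, and so did not pass, without GFP replicate 3 (0.051), without GFP replicate 4 (0.064), with RLE size factors (0.052) and with DESeq2 (0.11). Exons of *DAB1* on the same strand cover 6.91% of the *OMA1* exon bases. *DAB1*, a signalling adaptor of neurons, itself fell from 31 ± 0.84 to 14.1 ± 0.78 CPM (SD, n = 3).

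**Figure D1:**
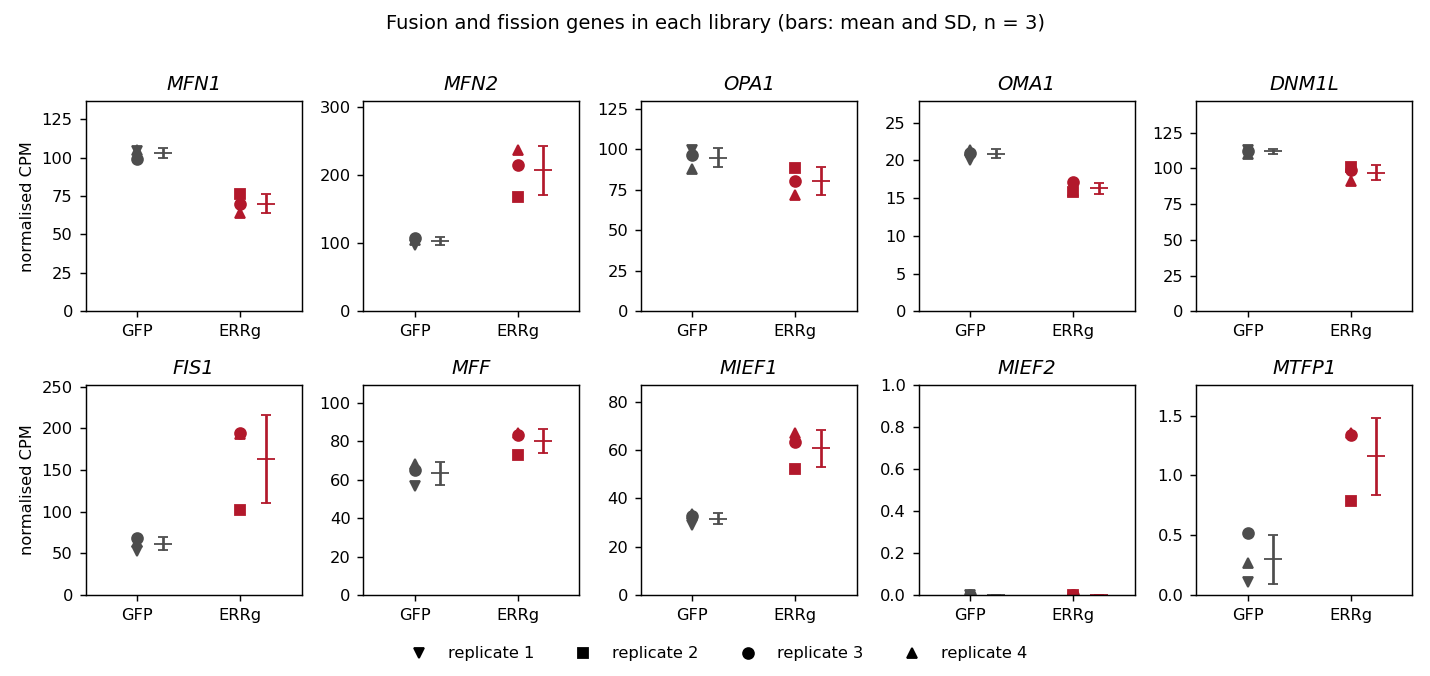
TMM-normalised CPM (vertical axes, each from 0) of the 10 genes in the 3 GFP and 3 Flag-ERRg (ERRg) libraries; symbols give the replicate number and bars the mean and SD (n = 3). The Flag-ERRg libraries lie above GFP for *MFN2*, *FIS1*, *MFF*, *MIEF1* and *MTFP1* and below for *MFN1*, *OMA1* and *DNM1L*, they overlap for *OPA1*, and *MIEF2* is at 0 in all libraries.

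Among the genes of division, the GTPase itself moved little. *DNM1L* (ENSG00000087470, chromosome 12 from 32679200 to 32745650) had 113, 112 and 110 CPM in GFP replicates 1, 3 and 4 and 101, 99.2 and 91.0 CPM in Flag-ERRg replicates 2, 3 and 4. The Flag-ERRg libraries were all lower, by a log2 fold change of -0.21 (standard error 0.09) that did not pass the adjusted p (0.078, edgeR), and passed narrowly when only genes with at least 10 counts in every library were tested (0.043). *FIS1* (ENSG00000214253, chromosome 7 from 101239458 to 101252316) had the largest change of the well-counted members. It had 53.2, 68.5 and 63.9 CPM with GFP and 102, 194 and 193 CPM with Flag-ERRg. Replicate 2 was thus far below replicates 3 and 4 and still above every GFP library. The fold change was 2.63, or 1.40 on the log2 scale (standard error 0.22, adjusted p = 5.0e-04, edgeR).

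The adaptors that bring *DNM1L* protein to the outer membrane differed in size of change. *MIEF1* (ENSG00000100335, chromosome 22 from 39499432 to 39518132) had 29.0, 32.6 and 33.4 CPM with GFP and 52.3, 63.3 and 66.9 CPM with Flag-ERRg, without overlap. The rise was 0.94 on the log2 scale (standard error 0.11, adjusted p = 1.4e-04, edgeR). The small reading frame gene *MIURF* covers 2.82% of the *MIEF1* exon bases on the same strand and was listed at 0 in every library. Noncoding genes on the opposite strand cover 8.2% of the exon bases of *MFF* (*MFF-DT*), 2.51% of *DNM1L* (ENSG00000275854) and 2.3% of *OPA1* (*OPA1-AS1*). *MFF* (ENSG00000168958, chromosome 2 from 227325151 to 227357833) had 56.7, 64.9 and 67.9 CPM with GFP and 72.9, 83.3 and 84.0 CPM with Flag-ERRg. The groups again did not overlap, with GFP replicate 4 and Flag-ERRg replicate 2 next to each other. The log2 fold change of *MFF* was 0.34 (standard error 0.10, adjusted p = 0.020, edgeR), below 1.5-fold. Its adjusted p was above 0.05, and so did not pass, in 4 of the 6 fits that left out 1 library. These were the fits without GFP replicate 1 (0.11) or 3 (0.057) or without Flag-ERRg replicate 3 (0.078) or 4 (0.055). After correction for GC content and gene length *MFF* was called higher, with a log2 fold change of 0.61 (adjusted p = 0.0019, edgeR).

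*MIEF2* (ENSG00000177427, chromosome 17 from 18260597 to 18266552) had 0 counts in all 6 libraries, which allows up to 3 counts per library for counting error alone. It was removed by the filter on low counts and was not tested. The protein-coding genes around it were at or near 0 as well. *FLII*, just before it, and *SMCR8* had 0 counts in every library and *TOP3A* at most 1, although these genes are widely expressed, while *LLGL1*, the gene before *FLII*, had between 770 and 1666 counts. The 0 of *MIEF2* therefore lies within a stretch of neighbouring genes that received almost no reads, and why they received none was not tested. No level of *MIEF2* can be read from this table.

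*MTFP1* (ENSG00000242114, chromosome 22 from 30425623 to 30429054), the inner membrane member, was the tested one with the fewest reads, with 3, 16 and 9 counts in GFP replicates 1, 3 and 4 and 21, 45 and 46 counts in Flag-ERRg replicates 2, 3 and 4. These are 0.106, 0.517 and 0.272 CPM against 0.786, 1.34 and 1.35 CPM, without overlap. The log2 fold change was 1.94 with the largest standard error of the members (0.44, adjusted p = 0.0043, edgeR), and it ran from 1.57 without GFP replicate 1 to 2.56 without GFP replicate 3. A protein-coding gene model on the same strand, ENSG00000249590, covers 55.5% of the *MTFP1* exon bases and was listed at 0 in every library. Reads there can be set aside as ambiguous in counting, so the *MTFP1* counts may rest on the rest of the gene. Ambiguous reads were at most 4.87% of all reads with GFP and up to 9.84% with Flag-ERRg.

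**Figure D2:**
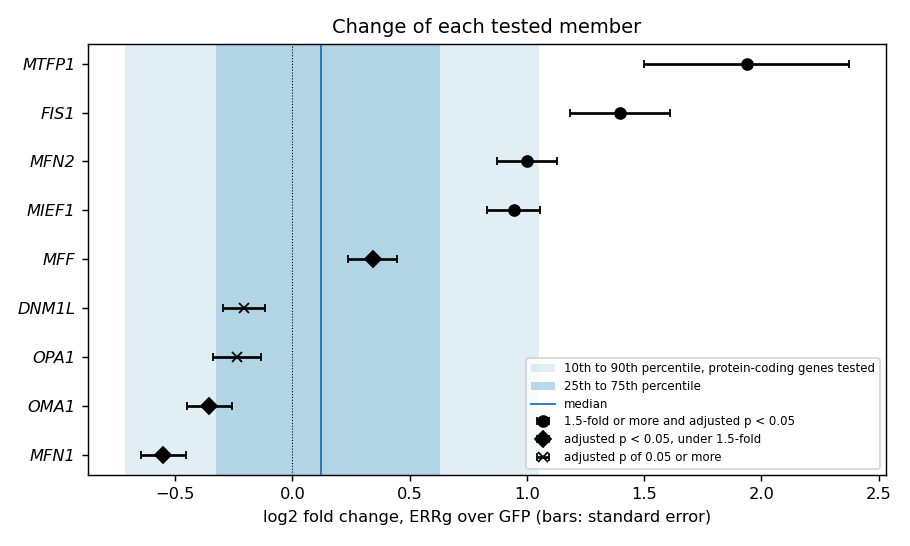
Log2 fold change of Flag-ERRg over GFP (horizontal axis) for the 9 tested members, with standard errors from edgeR as bars, over the 25th to 75th and 10th to 90th percentiles of the 13746 protein-coding genes tested (shaded) and their median (line). *MTFP1* at 1.94 and *FIS1* at 1.40 lie beyond the 90th percentile of 1.05, *MFN2* and *MIEF1* between the 75th percentile of 0.63 and the 90th, and *MFN1* at -0.55 between the 10th percentile of -0.72 and the 25th of -0.33.

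Levels can be compared between genes only per length, here as CPM per kilobase of all annotated exons of a gene, a length that overstates that of most single transcripts. With GFP, *FIS1* was the highest at 34.6 ± 4.38 CPM per kilobase (SD, n = 3). *MFN1* followed at 17.3 ± 0.55 and *DNM1L* at 13.9 ± 0.23. *OPA1* (10.5 ± 0.67), *MFF* (10.2 ± 0.94) and *MFN2* (10.1 ± 0.55) did not differ beyond their spread, and *OMA1* (5.61 ± 0.18) and *MIEF1* (4.19 ± 0.31) were lower. *MTFP1* was at 0.186 ± 0.129 CPM per kilobase. With Flag-ERRg, *FIS1* stood at 91.0 ± 29.5 CPM per kilobase and *MFN2* came next at 20.2 ± 3.48. *MFF* (13.0 ± 1.01), *DNM1L* (12.0 ± 0.65) and *MFN1* (11.8 ± 1.01) then did not differ beyond their spread, nor did *OPA1* (8.91 ± 0.93) and *MIEF1* (8.05 ± 1.00). *OMA1* was at 4.39 ± 0.20 and *MTFP1* at 0.722 ± 0.201 CPM per kilobase. By this measure *MFN1* stood above *MFN2* in the GFP libraries and below it in the Flag-ERRg libraries. With GFP both had a mean of 103 CPM, so their order there rests on exon length alone. That length was 5945 bases for *MFN1* and 10234 for *MFN2*. Their longest annotated transcripts are closer in length, with 5182 and 4742 words of 31 bases, so the GFP order may not hold per transcript.

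The size of several changes moved with the share of reads assigned to no feature. Other quantities ran the same way in the Flag-ERRg libraries. *ESRRG* was at 570 CPM in replicate 2 and at 772 and 778 CPM in replicates 3 and 4. Ambiguous reads were 5.69% of all reads in replicate 2 and 9.84% and 9.79% in replicates 3 and 4. Which of these the changes follow was not tested. Against its GFP mean, *FIS1* was 1.65 times as high in Flag-ERRg replicate 2 and 3.14 and 3.12 times in replicates 3 and 4. *MFN2* was 1.63, 2.08 and 2.29 times its GFP mean in replicates 2, 3 and 4, *MIEF1* 1.65, 2.0 and 2.11 times, and *MFN1* 0.741, 0.682 and 0.624 times. In replicate 2, whose share of such reads (46.6%) was nearest to GFP, the rise of *FIS1*, *MFN2* and *MIEF1* was thus of like size. A fit of replicate 2 alone against GFP, chosen after seeing the data, gave log2 fold changes of 0.72 for *FIS1*, 0.70 for *MFN2*, 0.73 for *MIEF1*, 1.37 for *MTFP1* and -0.43 for *MFN1*. These are given as values with no test, since they rest on 1 library that differed from the others of its group (chi-square per degree of freedom over genes 77.2 and 82.2) more than the GFP libraries differed among themselves (at most 10.6). With the share as a covariate over all 6 libraries, *MIEF1* alone of the members was called (0.61, adjusted p = 7.3e-05, edgeR). In that fit *MFN2* was at 0.55 (adjusted p = 1.2e-04) and *FIS1* at 0.43 (adjusted p = 0.0069), both now below 1.5-fold, *MTFP1* at 1.09 (adjusted p = 0.23) and *MFN1* at -0.36 (adjusted p = 0.013). The share differs between the groups, so the share and the treatment cannot be told apart fully in these libraries.

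**Figure D3:**
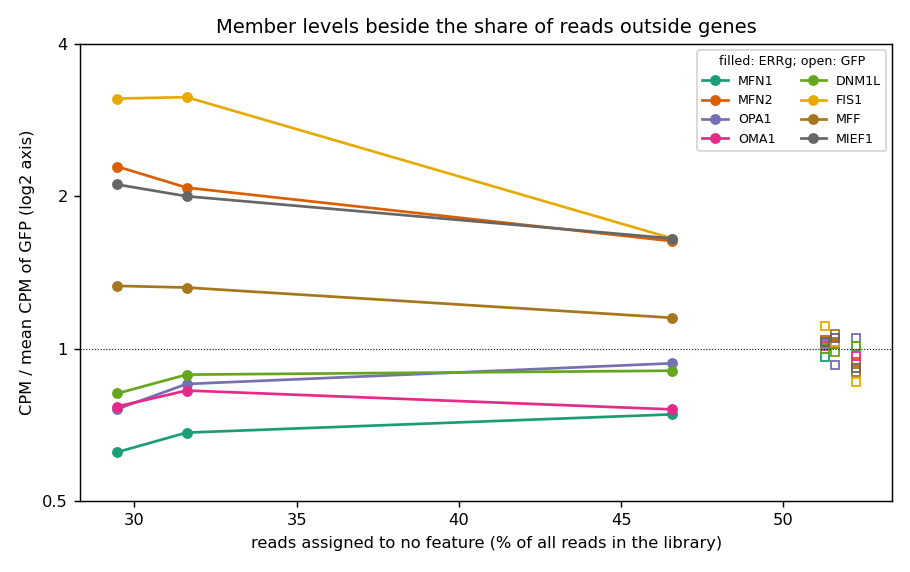
Level of 8 members in each library as CPM over the mean CPM of the GFP libraries (vertical axis, log2 scale) against the share of the library's reads assigned to no feature (horizontal axis, %), with filled points for Flag-ERRg joined by lines and open squares for GFP. Flag-ERRg replicate 2 is the point at 46.6%, where *FIS1*, *MFN2* and *MIEF1* sit between 1.63 and 1.65, while *FIS1* alone of them passes 3 in the libraries at 31.6% and 29.5%.

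Base composition also separated the members. The longest annotated transcripts of the 4 members called higher had GC contents of 50.2% to 61.3%, the highest that of *MTFP1*, which has few reads. Those of the other 5 tested members had 37.4% to 43.5%. Smooth curves of GC content and length were therefore fitted and removed in each library. The 4 members were still called, with log2 fold changes of 0.81 for *MFN2*, 1.12 for *FIS1*, 0.82 for *MIEF1* and 1.63 for *MTFP1*. *MFN1* was at -0.34 (adjusted p = 0.0031, edgeR) after the correction, and *OPA1* and *DNM1L*, which had not passed the test, changed sign to 0.05 and 0.06 without passing it (adjusted p 0.60 and 0.48). Scaled by library size alone, all tested genes had a median of -0.42 in place of -0.10, the 4 members called higher kept their calls at log2 fold changes of 0.61 to 1.6, and *MFN1* (-0.86) and *OMA1* (-0.68) were called lower. *OPA1* (-0.55, adjusted p = 0.0088, edgeR) and *DNM1L* (-0.52, adjusted p = 0.0037) then passed the adjusted p, and *MFF* was at 0.02 (adjusted p = 0.88). With protein-coding genes only, *OPA1* (-0.37, adjusted p = 0.017, edgeR) and *DNM1L* (-0.34, adjusted p = 0.0081) also passed it, short of 1.5-fold.

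**Figure D4:**
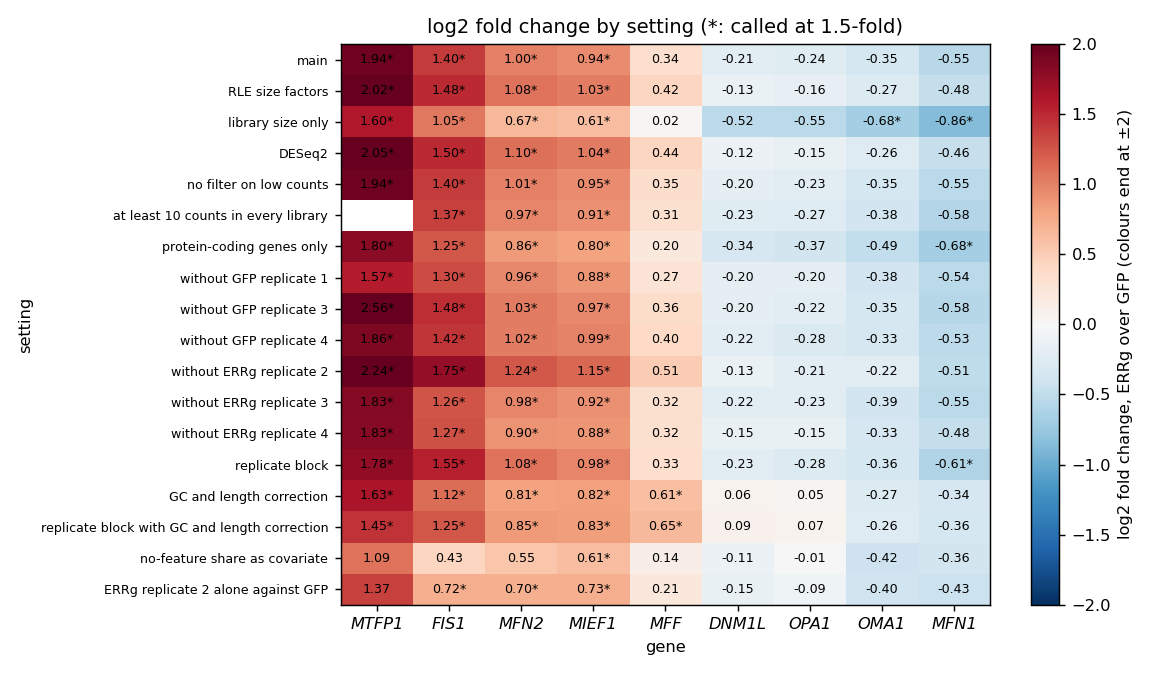
Log2 fold change of each tested member (columns) under each way of processing (rows), with colours from -2 (blue) to 2 (red) and an asterisk where the gene was called at 1.5-fold. The row for Flag-ERRg replicate 2 alone rests on 1 library. *MIEF1* is called in every row, *FIS1* and *MFN2* in all rows but the one with the share of reads assigned to no feature as a covariate, and the sign turns only for *DNM1L* and *OPA1*, in both rows with the GC and length correction.

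A wider list of 57 genes that act with the members held 56 tested genes, of which 27 were called higher and 3 lower, against 17.3% higher and 16.8% lower among all tested genes and 25.9% and 12.4% among the protein-coding ones. Their median log2 fold change was 0.53. Of 12 genes that regulate fusion or process *OPA1*, 8 were higher, with a median of 0.90. *PHB1*, a prohibitin of the inner membrane scaffold that holds the *OPA1* proteases, had 43.5, 53.1 and 49.3 CPM with GFP and 97.6, 166 and 174 CPM with Flag-ERRg (log2 fold change 1.58, standard error 0.19, adjusted p = 1.4e-04, edgeR). *ROMO1*, a small inner membrane protein tied to *OPA1* and cristae shape, went from 28.9 ± 1.38 to 86.4 ± 31.6 CPM (SD, n = 3), its replicate 2 at 50.6 CPM. Like *FIS1*, both were lower in Flag-ERRg replicate 2 than in replicates 3 and 4, and neither group overlapped.

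Of 9 accessory genes of fission, 4 were higher, with a median log2 fold change of 0.38. The largest changes were those of *PGAM5*, a mitochondrial phosphatase that acts on *DNM1L* protein, at 1.48 (standard error 0.15, adjusted p = 6.2e-05, edgeR), and *AKAP1*, which anchors protein kinase A to the outer membrane, at 1.10 (standard error 0.10, adjusted p = 3.1e-05). Of 11 genes that modify or turn over mitochondria, 5 were higher and 2 lower, with a median of 0.39. Beside both lists, 17.3% of all tested genes were higher and 16.8% lower, and 25.9% and 12.4% of the protein-coding ones. *MUL1*, an outer membrane ubiquitin ligase that acts on mitofusins, rose from 21.3 ± 1.5 to 61.2 ± 12.3 CPM (SD, n = 3), and the outer membrane protein *FKBP8* from 104 ± 7.63 to 220 ± 59.2 CPM. *BNIP3L* (NIX), a receptor for the removal of mitochondria by autophagy, had 77.7, 70.6 and 72.1 CPM with GFP and 23.9, 26.4 and 27.3 CPM with Flag-ERRg. It was the gene of the wider list that fell most (log2 fold change -1.51, standard error 0.10, adjusted p = 4.1e-06, edgeR), and its level in replicate 2 was close to those in replicates 3 and 4.

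Of 12 genes of the MICOS complex and its outer membrane partners, which shape the cristae, 9 were higher, with the highest median of the 5 lists (0.99). For this list and the next, the shares are 17.3% higher and 16.8% lower among all tested genes. Among the protein-coding ones they are 25.9% and 12.4%. *MICOS13*, a MICOS subunit, was at 1.5 on the log2 scale (standard error 0.17, adjusted p = 9.5e-05, edgeR), and *SAMM50*, which inserts barrel proteins into the outer membrane, at 1.20 (standard error 0.14, adjusted p = 1.0e-04). Of 13 genes of mitochondrial transport, 12 were tested, 1 was higher and 1 lower, and the median was 0.04. The one that rose was *RHOT2* (Miro2), a GTPase that links mitochondria to motors, with 53.3, 55.3 and 53.2 CPM with GFP and 101, 116 and 141 CPM with Flag-ERRg. The one that fell was *KIF5C*, a kinesin heavy chain, from 30.7 ± 2.05 to 18.8 ± 1.26 CPM (SD, n = 3), and 62.8% of the 31-base words of its longest transcript also occur in alternate contigs of hg38, so that its reads may be placed in more than 1 position. With the share of reads assigned to no feature as a covariate, 16 genes of the wider list were higher and 1 lower. In that fit 1773 of the 24500 tested genes were higher and 1323 lower.

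**Figure D5:**
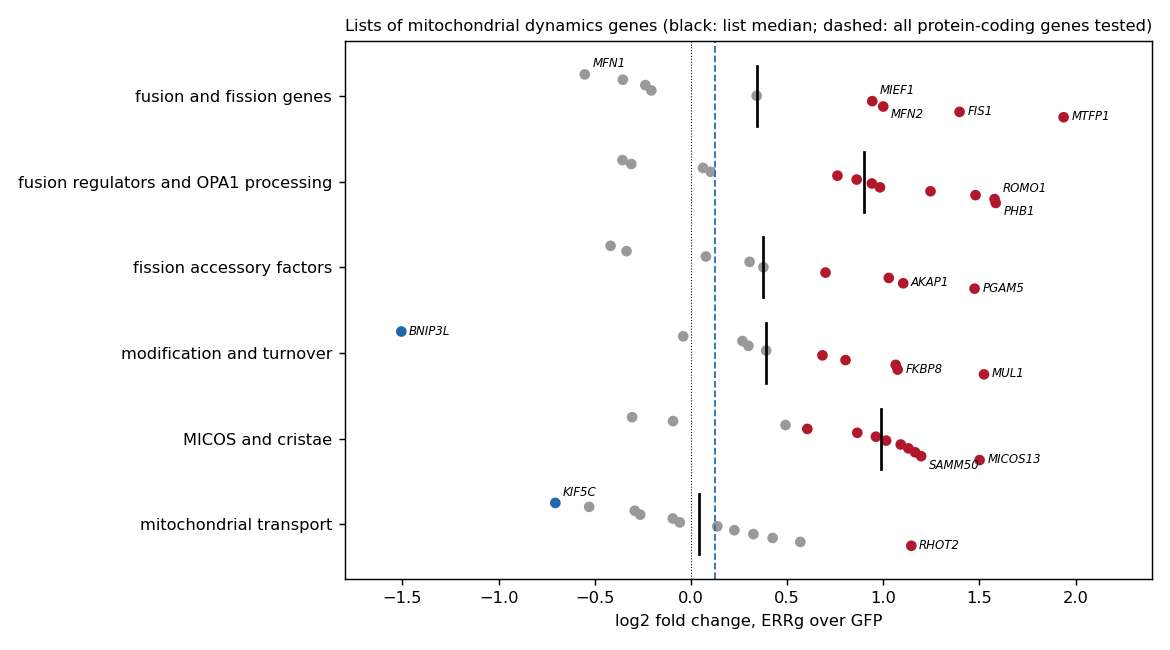
Log2 fold change of Flag-ERRg over GFP (horizontal axis) for each tested gene but 1 not reported here, with 1 row of points for the fusion and fission genes and for each list of related genes; red and blue points were called higher and lower, grey points were not called, black bars are list medians and the dashed line is the median of all protein-coding genes tested (0.12). The medians run from 0.04 for transport to 0.99 for MICOS and cristae, and *BNIP3L* lies farthest to the left at -1.51.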

How the data were processed

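Total RNA of SH-SY5Y cells was sequenced after rRNA depletion with a directional kit, in 3 GFP and 3 Flag-ERRg libraries grouped by their titles. Per the labels, the authors made raw counts with Trim Galore 0.6.7, STAR 2.7.9a and HTSeq 0.11.3 on GRCh38. Annotation release and strand setting are not given in the sources used here, so sense and antisense reads may not be separated. Identifiers were matched to GENCODE release 44 on GRCh38 (60419 of 67060, 90.1%). The 5 summary entries, including reads assigned to no feature (29.5% to 52.2% of reads), stayed out of library sizes.

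Testing used edgeR 4.0.16 in R 4.3.3 (filterByExpr, TMM, quasi-likelihood test, Benjamini-Hochberg over 24500 genes). Calls needed an adjusted p below 0.05 and a 1.5-fold change. The standard error was taken as the size of the log2 change divided by the root of its F statistic. The upper limit given for *MIEF2* covers counting error only, while SDs and standard errors also hold the spread between libraries. The members and lists were chosen with earlier results of these data known. Text names all members, *ESRRG*, genes overlapping a member and, per list, up to 2 called genes in each direction averaging 50 counts or more whose groups were separate. A gene that this rule names is not reported here. *RHOT1*, *BNIP3*, *PHB2*, *KIF5B* and the neighbours of *MIEF2* were chosen after their values were seen. Alternatives were DESeq2 1.42.0, RLE and library size scaling, other filters and cutoffs, omission of each library, protein-coding genes alone, replicate block, GC and length curves (mgcv 1.9.3; values for 98.9% of genes), and the no-feature share. The edgeR and DESeq2 fits were also run on simulated counts with the same dispersion for every gene. That setting is simpler than these libraries, so it says nothing of the error rates here. Promoters came from RefSeq (GRCh38.p14), where all 10 members matched. Tables and plots used Python 3.11.15, pandas 2.3.3 and matplotlib 3.10.9.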

Additional observations from a re-analysis of the deposited data

Results flagged for a closer look

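The summary entries of the counting lie outside the comparison of genes. Reads counted as ambiguous reached 9.84% of all reads in a Flag-ERRg library, against at most 4.87% with GFP. Such reads fall on more than 1 gene model, as 55.5% of the *MTFP1* exon bases do, and their part in the *MTFP1* counts was not tested.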

How the results depend on the processing

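Of the 20 alternatives, the number of members called higher (4) stayed within 1.5 times in all but the fit with the share of reads assigned to no feature as a covariate, which left 1. Members called lower (0) were 2 without a fold cutoff, 2 under library size scaling, and *MFN1* alone, so 1, both among protein-coding genes only and with the replicate block. Genes of the wider list called higher (27) were 17 with the 2-fold cutoff and 16 with the covariate. Those called lower (3) were 10 under library size scaling, 9 without a fold cutoff, and 1 in each of the fits with the covariate, the 2-fold cutoff and the threshold test at 1.5-fold. With 1 library left out, members called higher stayed at 4 and those called lower at 0, genes of the wider list ran from 25 to 30 higher and from 2 to 3 lower, and the log2 *MFN2* to *MFN1* difference from 1.37 to 1.75. Stricter cutoffs lower counts by construction, and the cause of the other changes was not tested. Without Flag-ERRg replicate 2 the wider list had the highest count, 30 higher.

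The sign turned only for *OPA1*, to 0.050 after correction for GC and length and 0.068 when that fit also held the replicate block, and for *DNM1L*, to 0.063 and 0.093, none of these called. The replicate numbers are shared only for 3 and 4. Deviations of same-numbered libraries correlated at 0.075 and -0.00010, within the range of differently numbered ones (-0.131 to 0.139). Whether same-numbered libraries were prepared together cannot be told from these values. Replicate 1 exists only with GFP and replicate 2 only with Flag-ERRg. A fit with the replicate block therefore compares the groups through replicates 3 and 4 alone, and little is left to measure the spread. With the replicate block 4 members were higher and 1 lower, and all tested genes had 4742 higher and 5693 lower in place of 4234 and 4117. *OPA1* (adjusted p = 0.0017) and *DNM1L* (0.011) then passed the adjusted p. Over all tested genes, counts higher and lower were 1773 and 1323 with the covariate, 1952 and 1982 at 2-fold, 2207 and 1387 against a 1.5-fold threshold, 2200 and 7566 under library size scaling, and 2555 and 2031 for Flag-ERRg replicate 2 alone, where the spread comes from the GFP libraries only and the counts carry no weight as a test. Of these calls 50.7% were higher in the fit reported, 22.5% under library size scaling and 62.7% with DESeq2. *MTFP1* was not tested with at least 10 counts in every library. Depth limits *MTFP1* most, at 3 to 46 counts, and *MIEF2* could not be measured.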

Other observations

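Some other pairs of related genes also moved apart, and were picked after their values had been seen, so they are given with no test of the difference. *RHOT1* (Miro1), the relative of *RHOT2*, had 45.3, 46.3 and 47.5 CPM with GFP and 38.1, 38.8 and 36.8 CPM with Flag-ERRg, a log2 fold change of -0.29 (adjusted p = 0.017, edgeR) beside 1.15 for *RHOT2*. *BNIP3*, the relative of *BNIP3L* and likewise a receptor for mitophagy, had 47.0, 47.8 and 48.6 CPM with GFP and 64.4, 89.7 and 96.3 CPM with Flag-ERRg, a log2 fold change of 0.80 (adjusted p = 8.9e-04, edgeR) beside -1.51 for *BNIP3L*. In both of these pairs the groups did not overlap for either gene. The same held for 58.1% of all tested genes and 70.3% of the protein-coding ones. In each pair the longest transcript of the gene that rose had the higher GC fraction. This fraction was 0.658 for *RHOT2* and 0.412 for *RHOT1*, and 0.514 for *BNIP3* and 0.374 for *BNIP3L*. Other related genes moved together, such as *PHB1* and *PHB2* (log2 fold changes 1.585 and 1.25) and *KIF5B* and *KIF5C* (-0.53 and -0.705).

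*MYO19*, the myosin that moves mitochondria on actin and the untested gene of the transport list, was listed at 0 in all 6 libraries, as were *TH* and *CHGA* among the markers. Why these genes received no counts was not tested, so the 0 values cannot be read as absence of expression.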
